A study of Homo sapiens with 6 samples.

Results

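Transcripts of 44 genes of homologous recombination, the Fanconi anaemia pathway and the neighbouring routes of DNA break repair were examined in docetaxel-resistant prostate cancer cells with and without MUC1 silencing. The genes were listed by symbol for what they are known to do, with earlier results of these data known, and all 44 were found among the 28008 genes of the count table. Homologous recombination repairs broken DNA by copying an intact sister strand: broken ends are resected to single strands, BRCA2 prepares these strands, and they invade the template with the help of further partner proteins. The Fanconi anaemia pathway clears crosslinks between DNA strands; its core complex attaches ubiquitin to FANCD2 and FANCI, which brings in nucleases and the recombination machinery. End joining ligates broken ends without a template. Loss of recombination genes is a known feature of some prostate cancers and is linked to sensitivity to PARP inhibitors.

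DU-145 is a line from a brain metastasis of prostate cancer, and DU-145-DR is its derivative grown in docetaxel (DTX) until resistant. MUC1 encodes a transmembrane mucin whose C-terminal subunit, MUC1-C, signals inside the cell. The DOX-negative group (3 libraries) was DU-145-DR/tet-MUC1shRNA given 0.1% DMSO, and the DOX-positive group (3 libraries) was the same line given 500 ng/ml doxycycline (DOX), each for 7 days. Both groups thus share the resistance selection and, by the study's methods, an integrated doxycycline-inducible hairpin against MUC1; only the DOX-positive samples have the hairpin in their treatment label. A library with DOX and a control hairpin was not analysed here, so silencing of MUC1, the drug itself and any other target of this hairpin cannot be told apart. The vehicle, 0.1% DMSO, is named for the DOX-negative group only, so a part of it cannot be told apart either. The labels describe triplicate cultures, and whether the line is 1 clone is not given in the sources used here. In these bulk libraries, fewer cells in a given state and less RNA per cell cannot be told apart.

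The libraries held between 15092691 and 23243713 counts, so that 3 counts, the floor used for absence, stood for 0.129 to 0.199 CPM, counts scaled to library size. MUC1 itself had 387, 484 and 396 counts without DOX and 75, 74 and 66 with DOX, which do not overlap. Its CPM was 21.9 ± 2.58 (SD, n = 3) without DOX and 3.86 ± 0.585 (SD, n = 3) with DOX, a log2 fold change of -2.52 with an SE of 0.146 (adjusted p = 4.47e-11 by edgeR). The epithelial markers KRT8, KRT18, KRT19, EPCAM and CDH1 were all detected and were called higher with DOX, 5 of 5, with a summed level of 758 to 838 CPM without DOX and 1440 to 1520 CPM with it. Of the luminal prostate markers, KLK3 was at 0 in every library and KLK2 had 1 count in DOX-negative replicate 3 and 0 in the others, under the floor of 3. Markers of fibroblasts, leukocytes and endothelial cells summed to at most 5.59, 0.479 and 0.915 CPM, so the epithelial label was met, while these luminal prostate markers were at or under the floor.

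The repair genes that passed the test were all lower with DOX, by modest amounts. Of the 44, 13 were lower with DOX (29.5%), 0 were higher and 31 did not pass the test (edgeR quasi-likelihood test, two-sided, Benjamini-Hochberg adjusted p under 0.05 over the 14292 genes tested). Across all genes tested, 26.7% passed, 13.7% lower and 13% higher, so the share called lower was above the background and the share called higher below it. The falls were modest: the 13 genes kept between 70.9% and 86.0% of their DOX-negative mean CPM. The median log2 fold change over the 44 genes was -0.13, with 32 negative and 12 positive, while the median over all genes tested was -0.0034. The groups did not overlap in 12 of the 44 genes on the lower side and in 3 on the higher side, where 20.2% and 19.5% of all genes tested did so. The absence of calls on the higher side is by edgeR; 2 genes, RBBP8 and PARP1, had a positive change at an unadjusted p under 0.05, and DESeq2 called 0 higher and 10 lower. The deposited TPM values are length-scaled levels that sum to the same total in each library. In log2(TPM + 1), higher calls made up 6.78% of all calls against 48.8% in the counts. There 0 of the 42 repair genes tested were called lower, but only 2.24% of all genes tested were, so the 0 is near that background.

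**Figure D1:**
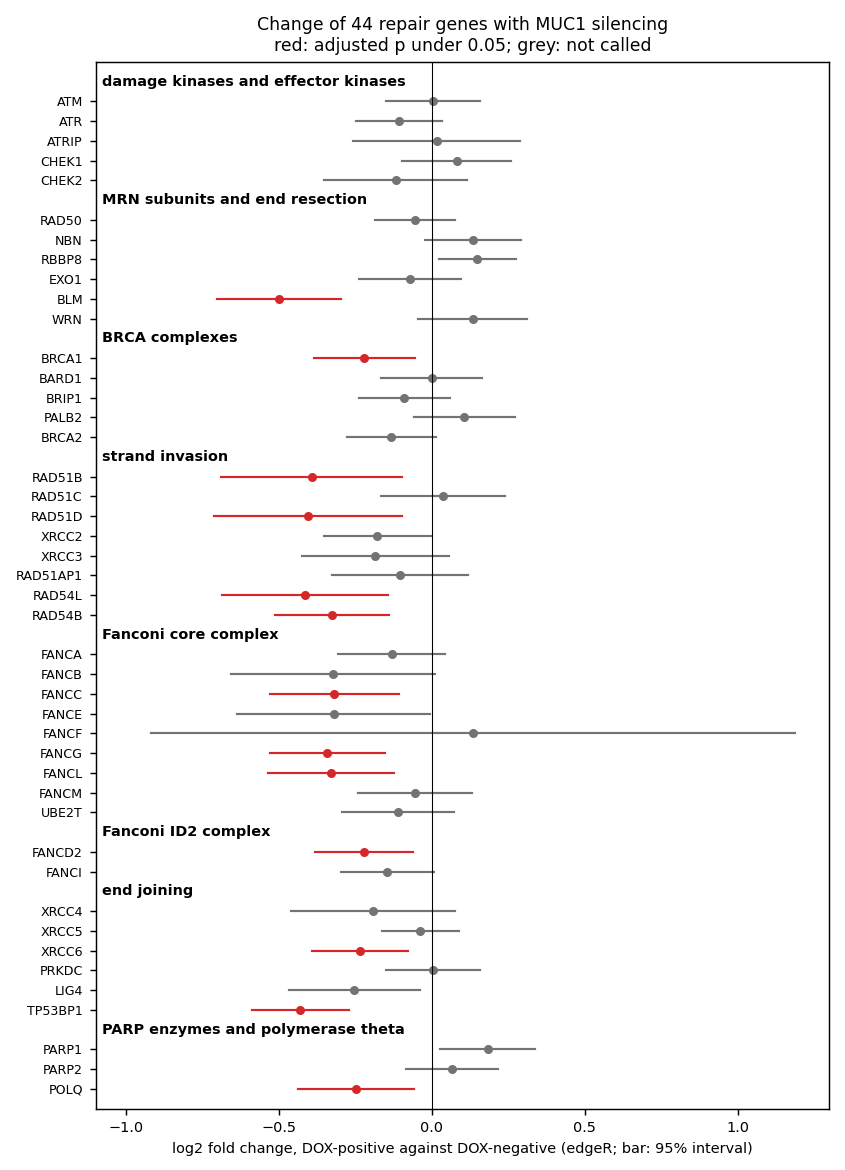
Log2 fold change of each of the 44 genes, DOX-positive against DOX-negative, grouped by role, with 95% intervals from edgeR. Red points are the 13 genes with an adjusted p under 0.05, which all lie left of 0, down to -0.50 for BLM, and FANCF has the widest interval.

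The number of calls rested on the set of libraries. Of the 44 genes, 6 were called lower without DOX-negative replicate 1 (13.6%, against 9.69% of all genes tested in that fit), 7 without replicate 2 (15.9% against 11.9%) and 8 without replicate 3 (18.2% against 11%). Without DOX-positive replicate 1 there were 7 (15.9% against 10.8%), without replicate 2 also 7 (15.9% against 13%) and without replicate 3 there were 9 (20.5% against 10.9%). The share was thus nearest to the background without DOX-positive replicate 2. Only BLM, FANCG and TP53BP1 were called in all 6 such fits, and RAD51D was called in none of them.

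**Figure D2:**
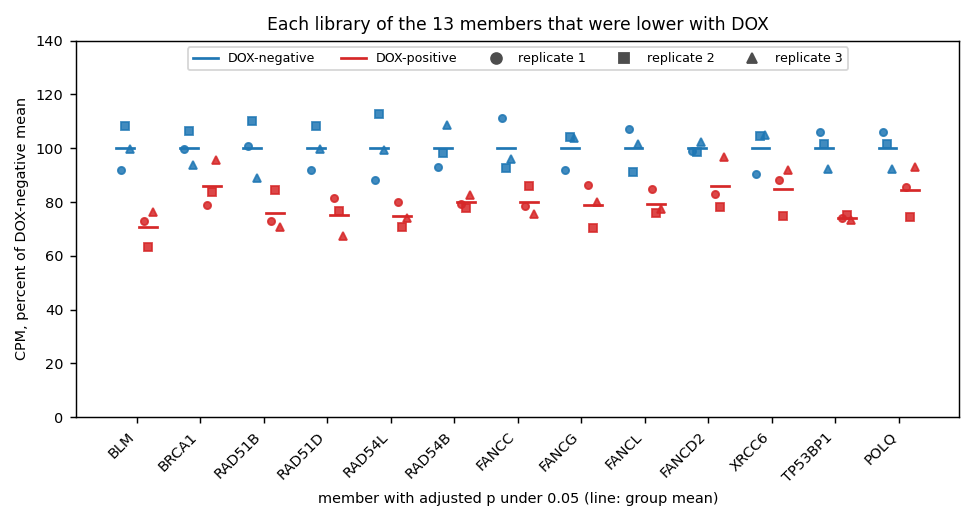
CPM of the 13 genes called lower in each library, as a percent of the DOX-negative mean, with DOX-negative libraries in blue, DOX-positive libraries in red and lines at the group means. In 10 of the 13 genes all red points lie under all blue points, and in BRCA1, XRCC6 and POLQ the groups overlap.

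Among the kinases that sense damage and pass the signal on, 0 of 5 genes were called. ATM, the kinase activated at double-strand breaks, had a log2 fold change of 0.0047 (95% interval -0.149 to 0.158, edgeR adjusted p = 0.971), with 87.5 to 102 CPM without DOX and 93.2 to 102 CPM with it. ATR, the kinase recruited to single-stranded DNA through ATRIP, had -0.11 (adjusted p = 0.255), and ATRIP had 0.016 (adjusted p = 0.948). The effector kinases CHEK1 and CHEK2, which ATR and ATM phosphorylate, had 0.081 (adjusted p = 0.533) and -0.12 (adjusted p = 0.48). The groups overlapped in all 5. The widest of the intervals were those of ATRIP (-0.258 to 0.289) and CHEK2 (-0.353 to 0.116). ATRIP shares exon sequence on the same strand with TREX1 and CHEK1 with STT3A, and CHEK2 has 4 annotated pseudogenes named after it, so reads of these genes may be split among their copies or neighbours.

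Of the 6 genes that start and extend resection or unwind the intermediates, only BLM was called. BLM encodes the helicase mutated in Bloom syndrome, which works in end resection and in dissolving joined DNA molecules, and its gene lies at chr15:90717327-90816165 on the plus strand of GRCh38. BLM read 31.3, 36.9 and 34.0 CPM without DOX and 24.8, 21.6 and 26.0 CPM with DOX. Every DOX-positive library was under every DOX-negative library, and BLM showed the largest fall in log2 fold change of the 44 genes, to 70.9% of the DOX-negative mean. The means were 34.1 ± 2.78 and 24.1 ± 2.30 CPM (SD, n = 3 each), for a log2 fold change of -0.50 with an SE of 0.0981 (adjusted p = 0.000586 by edgeR). WRN, the other RecQ helicase among them, had 37.7 to 38.4 CPM without DOX and 39.4 to 46.0 CPM with it, which do not overlap on the higher side, and a log2 fold change of 0.13 that did not pass (adjusted p = 0.27). RBBP8, also called CtIP, which starts resection, was likewise above its DOX-negative range in all 3 DOX-positive libraries (202 to 205 against 219 to 236 CPM), at 0.15 (95% interval 0.022 to 0.274, adjusted p = 0.0756). The MRN subunits RAD50 and NBN had -0.055 (adjusted p = 0.568) and 0.13 (adjusted p = 0.202), and EXO1, the exonuclease that lengthens resected ends, had -0.072 (adjusted p = 0.553).

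Of the BRCA complexes, BRCA1 alone of 5 genes was called. BRCA1, which forms a ubiquitin ligase with BARD1, read 85.9, 91.7 and 80.9 CPM without DOX and 68.0, 72.0 and 82.3 CPM with DOX. The groups overlap, since DOX-positive replicate 3 lies above DOX-negative replicate 3. The means were 86.2 ± 5.40 and 74.1 ± 7.36 CPM (SD, n = 3 each), for a log2 fold change of -0.22 with an SE of 0.0796 (adjusted p = 0.0436 by edgeR). BARD1, its partner, had a log2 fold change of -0.0008 (95% interval -0.167 to 0.165, adjusted p = 0.995). BRCA2, which prepares single strands for invasion, had -0.13 (adjusted p = 0.168), PALB2, which bridges BRCA1 and BRCA2, had 0.11 (adjusted p = 0.352), and the helicase BRIP1 had -0.090 (adjusted p = 0.392). PALB2 was higher in all 3 DOX-positive libraries than in any DOX-negative library, and BRIP1 was lower in all 3, by less than the test required. The BRCA1 call ended without DOX-negative replicate 1 or 2 and without DOX-positive replicate 1 or 2, with adjusted p between 0.0166 and 0.211 over the 6 fits that leave out a library.

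The genes of strand invasion held 4 of the 13 calls, among 8 genes, and their median log2 fold change was -0.26. RAD54L and RAD54B are related motor proteins that help a strand invade the template, and both fell. RAD54L read 11.6, 14.9 and 13.1 CPM without DOX and 10.5, 9.35 and 9.75 CPM with DOX, and its groups do not overlap. Its means were 13.2 ± 1.64 and 9.88 ± 0.608 CPM (SD, n = 3 each), for a log2 fold change of -0.42 with an SE of 0.131 (adjusted p = 0.0218 by edgeR). RAD54B read 32.2, 34.1 and 37.6 CPM without DOX and 27.4, 27.0 and 28.6 CPM with DOX, again with no overlap. The change of RAD54B was -0.33 with an SE of 0.0905 (adjusted p = 0.00988 by edgeR) from 34.6 ± 2.75 to 27.6 ± 0.834 CPM (SD, n = 3 each). Of the genes that encode the BCDX2 complex, RAD51B and RAD51D fell, while RAD51C and XRCC2 did not pass. RAD51B read 10.5, 11.5 and 9.25 CPM without DOX and 7.58, 8.78 and 7.33 CPM with DOX, a log2 fold change of -0.39 with an SE of 0.142 (adjusted p = 0.0444 by edgeR). RAD51D read 8.15, 9.61 and 8.86 CPM without DOX and 7.23, 6.79 and 5.98 CPM with DOX, a log2 fold change of -0.40 with an SE of 0.148 (adjusted p = 0.047 by edgeR). Neither gene's groups overlap, at means of 10.4 ± 1.10 and 7.90 ± 0.773 CPM for RAD51B and 8.87 ± 0.734 and 6.67 ± 0.634 CPM for RAD51D (SD, n = 3 each).

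RAD51C had a log2 fold change of 0.036 (adjusted p = 0.831) and XRCC2 of -0.18 (95% interval -0.354 to -0.004, adjusted p = 0.123). XRCC2 was called lower without DOX-positive replicate 3 (edgeR adjusted p = 0.0384). XRCC3, which pairs with RAD51C in a separate complex, had -0.18 (adjusted p = 0.254), and RAD51AP1, which stimulates strand invasion, had -0.10 (adjusted p = 0.52). RAD51D shares exons on its strand with the read-through gene RAD51L3-RFFL, RAD54B with FSBP, and RAD54L lies antisense to exons of LRRC41; whether counting used strand is not given in the sources used here. Leaving out libraries ended calls here too: RAD51D lost its call without any 1 of the 6 libraries (adjusted p 0.0571 to 0.158), and RAD51B without DOX-negative replicate 1 or 2 and DOX-positive replicate 1 or 3 (0.0237 to 0.168 over all 6 fits). RAD54L lost its call without DOX-negative replicate 2 and DOX-positive replicate 2 or 3 (0.0182 to 0.117), and RAD54B without DOX-negative replicate 3 (0.0661).

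The Fanconi core complex held 3 calls among 9 genes, and its median log2 fold change of -0.32 was the lowest of the role groups. FANCG, an adaptor subunit encoded at chr9:35073835-35080016 on the minus strand of GRCh38, read 41.6, 47.3 and 47.1 CPM without DOX and 39.1, 31.9 and 36.2 CPM with DOX. FANCL, the subunit with ubiquitin ligase activity, read 29.3, 24.9 and 27.8 CPM without DOX and 23.2, 20.7 and 21.1 CPM with DOX. FANCC, which joins FANCE and FANCF in a subcomplex, read 29.6, 24.6 and 25.5 CPM without DOX and 20.9, 22.8 and 20.035 CPM with DOX. In all 3 genes the DOX-positive libraries lay under the DOX-negative ones without overlap. FANCG went from 45.3 ± 3.22 to 35.7 ± 3.64 CPM (SD, n = 3 each), for a log2 fold change of -0.34 with an SE of 0.0910 (adjusted p = 0.00739 by edgeR). FANCL went from 27.3 ± 2.25 to 21.7 ± 1.32 CPM, at -0.33 with an SE of 0.0990 (adjusted p = 0.0165 by edgeR). FANCC went from 26.6 ± 2.62 to 21.2 ± 1.43 CPM, at -0.32 with an SE of 0.102 (adjusted p = 0.0229 by edgeR). FANCE and FANCB had point estimates of the same size as FANCC at lower counts, -0.32 (adjusted p = 0.124) and -0.32 (adjusted p = 0.145). FANCA had -0.13 (adjusted p = 0.268), FANCM, the translocase that anchors the core complex at DNA, had -0.056 (adjusted p = 0.7), and UBE2T, the conjugating enzyme that works with FANCL, had -0.11 (adjusted p = 0.385). FANCF gave 3 to 21 counts per library, and its interval of -0.919 to 1.187 leaves its direction undetermined at this depth. The FANCL call ended without DOX-negative replicate 1 or 3 or DOX-positive replicate 3 (adjusted p 0.0104 to 0.0971 over the 6 fits), and the FANCC call without DOX-negative replicate 1 or DOX-positive replicate 1 or 3 (0.0119 to 0.156). Exons of VRK2 lie antisense to FANCL.

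FANCD2 and FANCI form the clamp that the core complex marks with ubiquitin. FANCD2 read 96.7, 96.3 and 99.7 CPM without DOX and 81.0, 76.2 and 94.3 CPM with DOX. All DOX-positive libraries were lower, replicate 3 by the least. The means were 97.6 ± 1.83 and 83.8 ± 9.41 CPM (SD, n = 3 each), for a log2 fold change of -0.22 with an SE of 0.0773 (adjusted p = 0.0375 by edgeR). FANCI, its partner, read 113 to 115 CPM without DOX and 91.9 to 110 CPM with DOX, without overlap, and had -0.15 (adjusted p = 0.15). The FANCD2 call ended without any 1 of the DOX-negative libraries and without DOX-positive replicate 1 or 2, with adjusted p between 0.00878 and 0.137 over the 6 fits.

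The promoters of FANCD2 and FANCC are shown because both genes fell and both hold words of the kind bound by E2F factors, which drive many S-phase genes. The words searched on both strands were TTTCCCGC, TTTGGCGC, TTTGCCGC and TTTCGCGC, in RefSeq windows from 250 bases before to 50 after a gene's start (GRCh38.p14). Each sequence below runs from 180 bases before the start to 20 after it, 5′ to 3′ on the gene's strand, with the matching words in capitals. FANCD2 is at chr3:10026257-10026456 on the plus strand and FANCC at chr9:95317690-95317889 on the minus strand.
FANCD2: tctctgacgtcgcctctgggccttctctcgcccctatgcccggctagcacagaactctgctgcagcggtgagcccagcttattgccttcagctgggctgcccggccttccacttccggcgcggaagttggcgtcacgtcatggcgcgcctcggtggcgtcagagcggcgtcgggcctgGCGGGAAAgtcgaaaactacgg
FANCC: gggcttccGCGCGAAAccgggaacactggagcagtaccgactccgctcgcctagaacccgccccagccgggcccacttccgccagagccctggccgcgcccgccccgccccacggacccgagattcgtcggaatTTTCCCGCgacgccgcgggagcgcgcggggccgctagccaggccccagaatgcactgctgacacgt
FANCD2 holds 1 word, which begins 2 bases before the start, and FANCC holds 2. FANCC has a second RefSeq window, at chr9:95317205-95317504, which holds no such word. Of the 38 genes with a window, 6 held such a word (15.8%), against 695 of 10483 genes tested (6.63%). They were FANCD2, FANCC and XRCC6, which fell, and EXO1, XRCC2 and FANCA, which did not pass the test, or 25% of the 12 genes called lower and 11.5% of the 26 others. The word of XRCC6 begins 42 bases after its start, beyond the stretch printed for FANCD2 and FANCC, so its promoter is not shown. The cell cycle word TTTGAA was in 13.2% of the 38 genes against 13.6%, and CCAAT in 50% against 43%. A match is a run of letters in a window and not a measured binding site.

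Of the 6 end joining genes, 2 were called lower. TP53BP1, which shields broken ends from resection and lies at chr15:43403061-43510728 on the minus strand of GRCh38, read 73.4, 70.5 and 64.0 CPM without DOX and 51.3, 52.0 and 50.9 CPM with DOX. The DOX-positive libraries lay close together, under every DOX-negative library. The means were 69.3 ± 4.81 and 51.4 ± 0.573 CPM (SD, n = 3 each), for a log2 fold change of -0.43 with an SE of 0.0766 (adjusted p = 0.000228 by edgeR), and exons of TUBGCP4 lie antisense to it. XRCC6 encodes Ku70, which with Ku80, the product of XRCC5, caps DNA ends. XRCC6 read 327, 377 and 379 CPM without DOX and 318, 270.02 and 332 CPM with DOX. The groups overlap, with DOX-negative replicate 1 under DOX-positive replicate 3. The means were 361 ± 29.9 and 307 ± 32.4 CPM (SD, n = 3 each), for a log2 fold change of -0.24 with an SE of 0.0757 (adjusted p = 0.024 by edgeR), and 5 pseudogenes are named after XRCC6. XRCC5 had -0.037 (95% interval -0.164 to 0.089, adjusted p = 0.701). PRKDC, the kinase that Ku recruits, had 0.0040 (95% interval -0.15 to 0.158, adjusted p = 0.976). The ligase LIG4 and its scaffold XRCC4 had -0.25 (95% interval -0.467 to -0.04, adjusted p = 0.0722) and -0.19 (adjusted p = 0.292). LIG4 was called lower with total counts (edgeR adjusted p = 0.037), with no filter (0.0176) and without DOX-negative replicate 2 (0.00117). The XRCC6 call ended without DOX-negative replicate 2 or 3 or DOX-positive replicate 2, with adjusted p between 0.0125 and 0.124 over the 6 fits.

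The PARP enzymes attach poly(ADP-ribose) at DNA breaks, and POLQ encodes polymerase theta, which joins ends through short matching stretches. POLQ read 47.4, 45.6 and 41.4 CPM without DOX and 38.3, 33.3 and 41.8 CPM with DOX. Its groups overlap through DOX-positive replicate 3, and its fall was the closest of the 13 to the threshold, at a log2 fold change of -0.25 with an SE of 0.0919 (adjusted p = 0.0495 by edgeR). POLQ, RAD51B and RAD51D also missed the threshold with DESeq2 (adjusted p = 0.0591, 0.0634 and 0.07) and with counts thinned to the smallest library (0.082, 0.107 and 0.0566). PARP1 read 217, 251 and 218 CPM without DOX and 270.3, 229 and 278 CPM with DOX. It had the largest positive estimate of the 44 genes, 0.18 (95% interval 0.026 to 0.338, adjusted p = 0.0777), with overlapping groups. PARP1 was called higher without DOX-negative replicate 2 (adjusted p = 0.0174) and without DOX-positive replicate 2 (adjusted p = 0.00771). PARP2 had 0.065 (adjusted p = 0.559). The POLQ call ended without DOX-negative replicate 1 or 2 or DOX-positive replicate 1 or 2, with adjusted p between 0.0269 and 0.192.

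The DOX-positive libraries differed among themselves over these genes. Replicate 2 was the lowest of its group in 26 of the 44 genes, against 37.4% of all genes tested, and replicate 3 was the highest in 23, against 30.6%. The median over the 44 genes of the log2 CPM minus the DOX-negative mean was -0.119 in replicate 1, -0.219 in replicate 2 and -0.039 in replicate 3, while over all genes it lay between -0.005 and 0.004 in these libraries. The summed level of 27 licensing and fork genes was also lowest in DOX-positive replicate 2, while replicates 1 and 3 lay close together. It was 2816, 2848 and 3152 CPM without DOX and 2799, 2383 and 2819 CPM with DOX. The 44 genes summed to 3703, 3837 and 3754 CPM without DOX, in another order, and to 3559, 3442 and 3803 CPM with DOX. The part of the replicating share of cells in the falls was not tested. Without DOX-positive replicate 2, the median log2 fold change of the 44 genes was -0.09 and 7 were called lower, or 15.9%, close to the 13% of all genes tested that were lower in that fit.

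Ratios of counts between complex partners within a library do not depend on library size, and 10 such pairs were compared by an exact two-sided permutation test, which cannot give a p under 0.1 with 3 libraries against 3. BRCA2 over PALB2 was 3.65, 3.62 and 3.68 without DOX and 2.99, 2.93 and 3.35 with DOX. RAD50 over NBN was 1.22, 1.35 and 1.17 without DOX and 1.14, 1.04 and 1.09 with DOX. XRCC6 over XRCC5 was 0.912, 0.991 and 0.972 without DOX and 0.901, 0.721 and 0.891 with DOX. In these 3 pairs the groups did not overlap and the exact p was 0.1 (Benjamini-Hochberg adjusted 0.333 over the 10 pairs). The other 7 pairs overlapped, with exact p between 0.2 and 0.6. FANCD2 over FANCI, for example, was 0.852 ± 0.0109 without DOX and 0.811 ± 0.0684 with DOX (SD, n = 3 each, exact permutation p = 0.5).

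**Figure D3:**
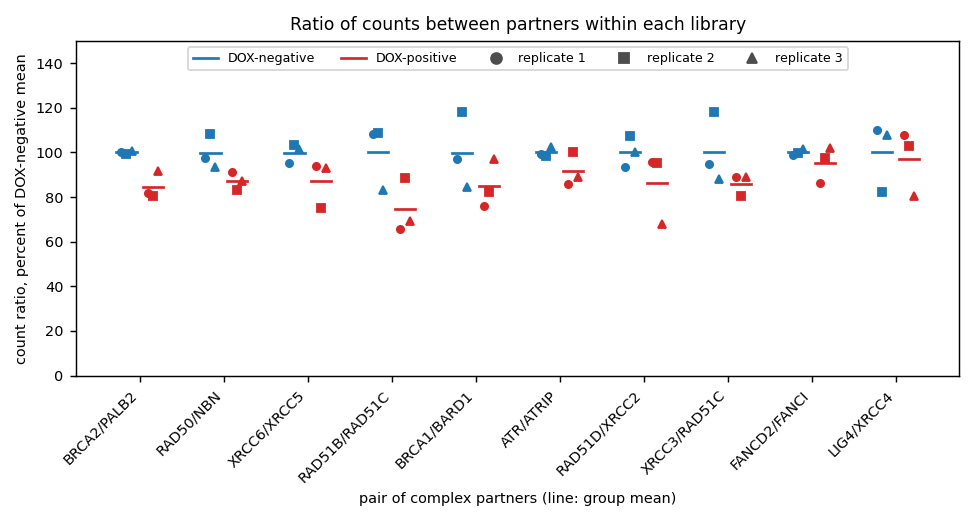
Ratio of counts between the partners of 10 pairs in each library, as a percent of the DOX-negative mean, with DOX-negative libraries in blue, DOX-positive libraries in red and lines at the group means. The red points lie under all blue points only for BRCA2 over PALB2, RAD50 over NBN and XRCC6 over XRCC5.

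Levels between genes were set side by side only per length, in TPM. In the deposited TPM, the signal recognition particle RNAs RN7SL1, RN7SL2 and RN7SL3 together with RN7SK and RPPH1, all short and noncoding, took 34.4% to 64.4% of a library's total, so TPM were rescaled without them. In DOX-negative cells the rescaled level ran from 455 ± 36.4 TPM for XRCC6 and 308 ± 11.7 TPM for XRCC5 (SD, n = 3 each) down to 2.92 ± 0.381 TPM for RAD51B and 0.564 ± 0.408 TPM for FANCF, with a median of 32.9 TPM over the 44 genes. RBBP8 (160.3 TPM), PARP1 (159 TPM) and UBE2T (129.97 TPM) followed the Ku subunits. Of the 44 genes, 12 were above 50 TPM and 31 between 1 and 50 TPM. Among the 43 pairs of neighbours in this order, 14 did not overlap in their 3 libraries, so most neighbours did not differ beyond their spread. The genes that fell stood along the whole order: XRCC6 was the first, FANCG (49.7 TPM) and FANCD2 (42.8 TPM) lay in the upper part, BLM (19.3 TPM) and TP53BP1 (16.8 TPM) in the lower part, and RAD51B was the last but FANCF.

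**Figure D4:**
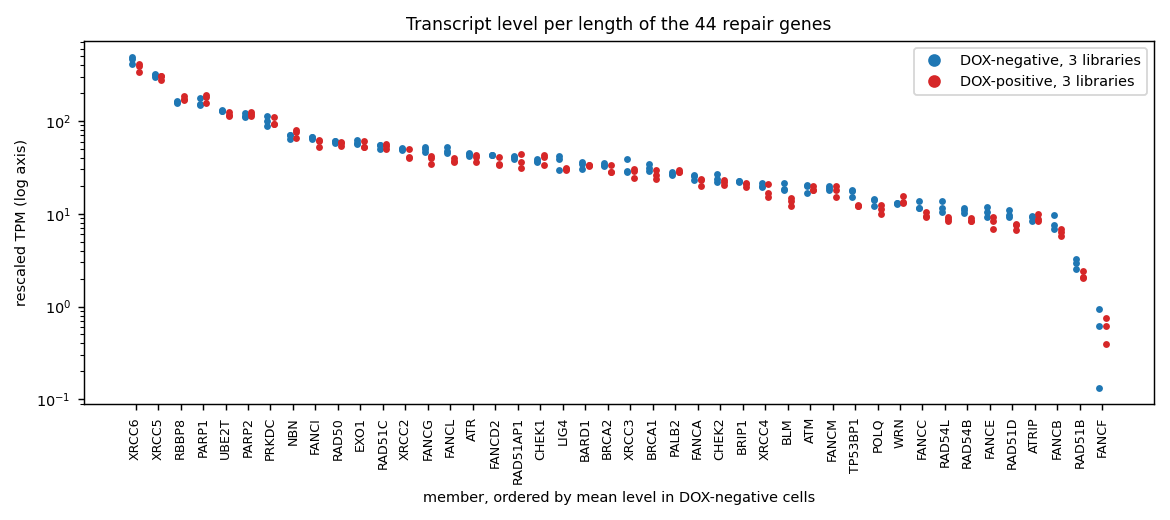
Rescaled TPM of the 44 genes in each library on a log axis, ordered by the DOX-negative mean, with DOX-negative libraries in blue and DOX-positive libraries in red. Levels run from 455 TPM for XRCC6 to 0.564 TPM for FANCF in DOX-negative cells, and red and blue points lie close together for most genes.

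Other genes of the same pathways were counted from lists by function. Of 32 other recombination genes, 6 were lower and 2 higher, and of 15 other Fanconi genes, 4 were lower and 1 higher. Of 17 other damage signalling genes, 5 were lower and 0 higher (1 of the 17 had a positive change at an unadjusted p under 0.05, by edgeR), and of 15 other end joining and single-strand break genes, 4 were lower and 1 higher. Together they gave 19 lower (24.1%) and 4 higher (5.06%) of 79, with a median log2 fold change of -0.058. Over all genes tested, 13.7% were lower and 13% higher. The other recombination genes lay nearest to the lower share, at 18.8%. SLX4, a scaffold for nucleases that cut crosslinks and joint molecules, had a larger fall than any of the 44 genes, from 25.9, 26.6 and 22.2 CPM to 16.6, 11.7 and 16.1 CPM (log2 fold change -0.75, SE 0.125, edgeR adjusted p = 0.000115). CLSPN, the mediator through which ATR activates CHEK1, fell by 0.55 in log2 with an SE of 0.0903 (adjusted p = 0.000103 by edgeR), although both kinases did not pass the test. TOPBP1, the ATR activator, fell by 0.32 and CDC25C, a phosphatase that CHEK1 restrains, by 0.35. LIG3, a ligase of single-strand break repair, fell by 0.53, the Ku-binding factor PAXX by 0.42 and FAM35A, the shieldin subunit SHLD2 that acts downstream of TP53BP1, by 0.26 (all log2, edgeR adjusted p under 0.05). Of the BRCA1-A complex, ABRAXAS1 fell by 0.48 and BABAM2 rose by 0.30. The helicase partners MCM8 and MCM9 went opposite ways, at -0.38 and 0.47 (edgeR adjusted p = 0.00136 and 0.00202). Of the translesion polymerases, REV1 fell by 0.32 and REV3L rose by 0.35, the ubiquitin ligase RFWD3 fell by 0.32, the USP1 cofactor WDR48 fell by 0.29, and APTX, which repairs failed ligations, rose by 0.42.

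Of 27 replication licensing and fork genes, 8 were lower (29.6%) and 1 higher, close to the share of the 44 repair genes, with a median of -0.14. RFC5 and RFC4, subunits of the clamp loader, fell by 0.42 each and MCM4, a subunit of the replicative helicase, by 0.41, while RRM2, a subunit of ribonucleotide reductase, rose by 0.20 (all log2, edgeR). Of the genes known to be induced by p53, 8 of 10 were higher and 0 lower (0 also at an unadjusted p under 0.05, by edgeR), with a median of 0.84. SESN2 and GADD45A, which respond to stress, rose by 1.31 and 1.13, and CDKN1A, the cell cycle inhibitor p21, by 1.12. PCNA is in both of these lists, and no test of a difference between lists was run.

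**Figure D5:**
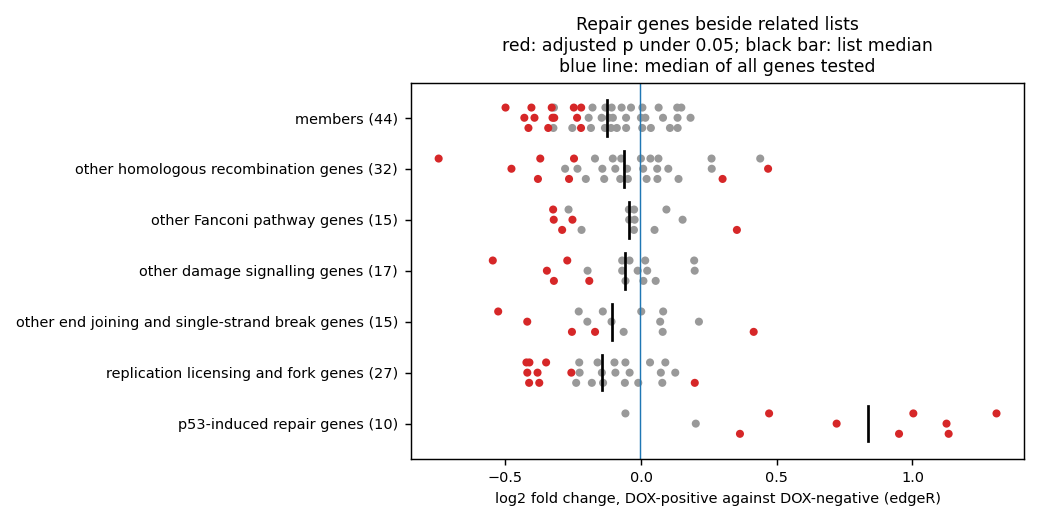
Log2 fold change of each gene in the 44 repair genes and 6 related lists, with red for adjusted p under 0.05, a black bar for each list's median and a blue line for the median of all genes tested. The medians run from -0.14 for the replication genes to 0.84 for the p53-induced genes, and the 44 repair genes are at -0.13.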

How the data were processed

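RNA-Seq libraries (TruSeq Stranded mRNA) came from 3 DOX-negative and 3 DOX-positive cultures, grouped by title. The authors deposited whole-number read counts of 28008 genes and TPM of 25546 genes; the submitters' processing notes name STAR, DESeq2, GRCh38 and hg38, while the counter, its strand setting and the annotation are not given in the sources used here. Counts were tested in R 4.3.3 with edgeR 4.0.16 (filterByExpr, 14292 genes; TMM factors 0.986 to 1.03; quasi-likelihood test). CPM use TMM-scaled library sizes, and SE is the absolute log2 fold change over the root of F. Alternatives used DESeq2 1.42.0 and limma 3.58.1. Replicates differed by more than sampling noise (chi-square per degree of freedom 3.65 to 19), and p-values measure the spread between these cultures. Counting floors cover counting error only. On simulated data edgeR recovered 96.5% of 200 genes changed by 1 log2 among 14173, with 17 false calls. The 44 genes changed by -0.5 to 0.182 log2. Changes of that size were not simulated, so their recovery is not known, and a gene not called may still have changed. These genes and the other lists were chosen with earlier results of these data known. All genes called among the 44 are given in full, and from each other list at most the 3 largest rises and 3 largest falls past the threshold with a mean log2 CPM of at least 1. Of the list symbols, 2 were matched through synonyms and 3 were not matched. Some genes of the marker and pathway lists are not reported here by name. Gene positions and exon overlaps are from GENCODE 29, promoters from RefSeq.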

Additional observations from a re-analysis of the deposited data

How the results depend on the processing

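The fall of MUC1 kept its call under every alternative run (log2 fold change -2.85 to -2.36). Genes called numbered 3816, and 2784 to 3645 with a library left out, but 295 in log2(TPM + 1) and 311 in log2(TPM + 0.1), where the median of all genes shifted to -0.348 and -0.387 and that of the 44 genes to -0.491 and -0.517. Members called lower numbered 13, and 10 with DESeq2 (22.7%, against 12.8% of all genes tested) and 8 with the replicate block (18.2% against 11.4%). There were 7 in rescaled TPM (16.3% against 12%) and 6 to 9 with a library left out. In log2(TPM + 1) and log2(TPM + 0.1), 0 and 0 of 42 members tested were lower, against 2.24% and 2.35% of all genes tested. Members called higher numbered 0, and 1 (PARP1) with no filter (adjusted p = 0.0334) and 0 to 1 with a library left out. The cause was not tested. The replicate numbers did not pair the libraries (correlations of same-numbered deviations -0.0189, -0.095 and -0.0273, and no library correlated best with its own number), and with the replicate block 8 of the 13 calls were kept.

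Estimates that changed sign in other count fits were of genes that did not pass the test, but in deposited TPM, where all genes shifted down, they included genes called higher in the counts (REV3L, BABAM2 and RRM2) and PARP1. With total counts ATM was -0.031, ATRIP -0.02 and PRKDC -0.033, with thinned counts ATRIP -0.016 and PRKDC -0.012, and in rescaled TPM ATM -0.017, ATRIP -0.00692 and PRKDC -0.02. In log2(TPM + 1) and log2(TPM + 0.1), negative values were ATM -0.349 and -0.382, ATRIP -0.307 and -0.368, CHEK1 -0.303 and -0.318, NBN -0.251 and -0.258, RBBP8 -0.243 and -0.246, WRN -0.23 and -0.261, PALB2 -0.268 and -0.285, RAD51C -0.345 and -0.357, PRKDC -0.381 and -0.388, PARP1 -0.211 and -0.213, PARP2 -0.324 and -0.329, and, of other genes, BABAM2 -0.094 and -0.096, REV3L -0.039 and -0.039, and RRM2 -0.193 and -0.194. BARD1 was 0.0028 with DESeq2, 0.00285 with RLE factors, 0.000762 with no filter, 0.0036 with the replicate block and 0.029 with thinned counts. With a library left out, the ranges that crossed 0 were ATM -0.059 to 0.051, ATRIP -0.048 to 0.067, BARD1 -0.077 to 0.071, RAD51C -0.027 to 0.089, RAD51AP1 -0.235 to 0.016, FANCF -0.338 to 0.671, FANCM -0.137 to 0.046 and PRKDC -0.073 to 0.08. FANCF had no value in TPM or with at least 10 counts in every library, and RAD51B none in deposited TPM, since they were under the filter. Of the results for single members, 561 kept direction and side, 79 kept direction but lost the call, 7 gained it and 51 changed sign. FANCF, with 3 to 21 counts, had a 95% interval of -0.919 to 1.187.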

Other observations

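The heptamer ATCAGTA was picked out in an earlier look at these data, in which genes that carry it in the 3′ UTR were lower with DOX, so its counts here are a description and no test was run. In the GENCODE 29 principal transcripts, 394 of the 1210 genes tested with it in the 3′ UTR were lower (32.56%), against 187 of 847 with it only before the 3′ UTR (22.08%) and 1248 of 10042 with it nowhere (12.43%), and the median transcript lengths of these classes were 5326, 4576 and 2962 bases. Among the 44 repair genes, only RAD50, ATM and CHEK1 carry it in the 3′ UTR, and none of these 3 was called. Their sites are on the plus strand of GRCh38, with the heptamer in capitals at chr5:132645603-132645609, chr11:108368780-108368786 and chr11:125656557-125656563. They are shown because they are the sites among genes that were not called.
RAD50: acgtgaaagtaATCAGTAggaaattgggg
ATM: gtgtttacctaATCAGTAggttcacaaac
CHEK1: ttaagaattgaATCAGTAtaaattctcaa
The 13 genes called lower have no such site in the 3′ UTR. Of the 8 repair genes with the heptamer only before the 3′ UTR, 6 were called lower (BLM, BRCA1, RAD54B, FANCD2, XRCC6 and TP53BP1, but not PALB2 and XRCC5), and of the 33 with it nowhere, 7 were.

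Of the 44 genes, 11 start within 1000 bases of a protein-coding neighbour read the other way that was also tested. Among these 11 genes only BRCA1, XRCC6 and TP53BP1 were called, and of their neighbours and those of the others 3 were higher and 2 lower. In 0 of the pairs were both genes called in the same direction. With 13.7% of all genes tested lower and 13% higher, few pairs could have met this, so the 0 says little about them. XRCC6 fell while DESI1, whose start is 23 bases away, rose by 0.55 in log2 with an SE of 0.0674 (adjusted p = 2.32e-06 by edgeR). PRKDC, at 0.0040, starts 2 bases from MCM4, which fell by 0.41 (edgeR adjusted p = 0.000164). PALB2 starts 82 bases from DCTN5, which rose by 0.29 (edgeR adjusted p = 0.0035), and FANCB starts 372 bases from MOSPD2, which fell by 0.73 (edgeR adjusted p = 3.74e-05). The pair of BRCA1 and NBR1, 236 bases apart by the outermost annotated starts, also split, with NBR1 higher by 0.21 (edgeR adjusted p = 0.0244). BRCA1 has a second promoter window, at chr17:43125315-43125614, to which this distance does not apply. Which BRCA1 start these cells use was not tested.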
